A study of Mus musculus with 2 samples.

Results

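Of 17922 peaks in a ChIRP-seq experiment, which purifies an RNA together with its chromatin and sequences the DNA, on the microRNA miR-9, 79 were named for a small nucleolar or Cajal body RNA gene. They were chosen by name alone, as the peaks whose gene, assigned by the program HOMER from the nearest gene start, begins with Snord, Snora or Scarna. The 79 peaks held 55 named for Snord genes, 21 for Snora genes and 3 for Scarna genes, and they named 23, 15 and 2 different genes of these classes, 40 in all. RefSeq annotates 142 genes with such names, of which 94 are Snord, 39 Snora and 9 Scarna.

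The study asked where miR-9 contacts chromatin in MLg, a line of mouse lung fibroblasts, by fixing the cells with formaldehyde, capturing mature miR-9 with complementary biotinylated oligonucleotides and sequencing the attached DNA. It had 1 miR-9 ChIRP library and 1 input library of these cells, with no replicates and no treatment or mutation in the labels of either, and the peaks of the miR-9 ChIRP library were called over the input. The sample labels name oligonucleotides against mature miR-9, while the methods paragraph on ChIRP names Mirlet7d, another microRNA, and the values below follow the labels. No library captured with a control oligonucleotide was analysed here. The peak list gives positions, widths and annotation, and its score column is 0 throughout, so neither the strength of a peak nor the depth of a library is known. Every value below describes 1 peak list of 1 cell line, and the 95% exact (Clopper-Pearson) binomial intervals cover counting error only. Identity of the cells was not checked, since the data hold no RNA levels.

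Small nucleolar RNAs are short stable RNAs that guide the chemical modification of other RNAs, above all of ribosomal RNA. The Snord genes make box C/D RNAs, which guide 2′-O-methylation together with the methyltransferase fibrillarin, and the Snora genes make box H/ACA RNAs, which guide pseudouridylation together with dyskerin. Scarna genes make the guide RNAs of the Cajal body, which act on spliceosomal RNAs. In mammals most of these RNAs are cut out of introns, so that a small RNA gene sits inside a host gene, often one for a ribosomal protein or a long non-coding RNA whose known product is the small RNA.

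RefSeq sequences of build GRCm38.p6, the assembly behind mm10, show what was captured and what was covered. All coordinates are those of mm10, counted from 1. Mature miR-9 is 23 bases long, and its seed, bases 2 to 8, is in capitals.
mmu-miR-9-5p: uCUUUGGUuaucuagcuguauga

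A peak overlapped 9 small RNA genes, and the sequences of 6 of these are shown as examples of the small RNAs that lie under a peak. Capitals mark TGATGA (box C) and CTGA (box D) in the Snord genes and ACA near the end of the Snora genes, on the strand of the gene.
Snord47: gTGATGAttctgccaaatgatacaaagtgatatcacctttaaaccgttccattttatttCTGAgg
Snord14c: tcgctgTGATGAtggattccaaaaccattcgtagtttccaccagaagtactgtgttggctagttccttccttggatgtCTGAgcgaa
Snord14d: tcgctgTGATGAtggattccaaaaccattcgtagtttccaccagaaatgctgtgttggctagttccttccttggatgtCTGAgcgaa
Snora24: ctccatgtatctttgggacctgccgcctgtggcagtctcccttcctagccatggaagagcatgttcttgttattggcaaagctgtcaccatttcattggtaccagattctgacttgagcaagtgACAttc
Snora65: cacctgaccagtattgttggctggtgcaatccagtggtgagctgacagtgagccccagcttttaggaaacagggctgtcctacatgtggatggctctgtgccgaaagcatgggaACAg
Snora78: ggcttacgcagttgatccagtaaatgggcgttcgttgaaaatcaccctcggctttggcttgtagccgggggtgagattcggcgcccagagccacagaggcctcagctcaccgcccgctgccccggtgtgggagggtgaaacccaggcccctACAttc

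The boxes follow the names. CTGA lay in the last 20 bases of 93 of 94 Snord genes and 4 of 39 Snora genes, and ACA lay in the last 8 bases of 3 of 94 Snord genes and 37 of 39 Snora genes. TGATGA lay in the first 25 bases of 45 of 94 Snord genes and of 0 of 39 Snora genes. Several RefSeq genes are short (Snord98 has 28 bases), so a box outside the annotated ends was not searched.

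Annotated small RNA genes had a nearby peak more often than other genes. Of the 142 small nucleolar and Cajal body RNA genes, 33 had the centre of a peak at most 2 kb from their start (23.2%, interval 16.6 to 31.1%), while 5.58% of all 49598 annotated genes had one. Among Snord genes the share was 20 of 94 (21.3%, 13.5 to 30.9%), among Snora genes 12 of 39 (30.8%, 17.0 to 47.6%), and among Scarna genes 1 of 9. The intervals of Snord and Snora genes overlap widely, so a difference between the box classes was not detectable with this number of genes. Within 5 kb the share was 51 of 142 (35.9%), beside 10.8% of all annotated genes. The snoRNA genes without a Snord, Snora or Scarna name had 85 of 1198 (7.10%), miRNA genes 53 of 1228 (4.32%), snRNA genes 35 of 996 (3.51%), and protein-coding genes with a curated mRNA 1624 of 21000 (7.73%). Genes for tRNA, with 69 of 403 (17.1%, 13.6 to 21.2%), came closest to the small nucleolar RNA genes.

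**Figure D1:**
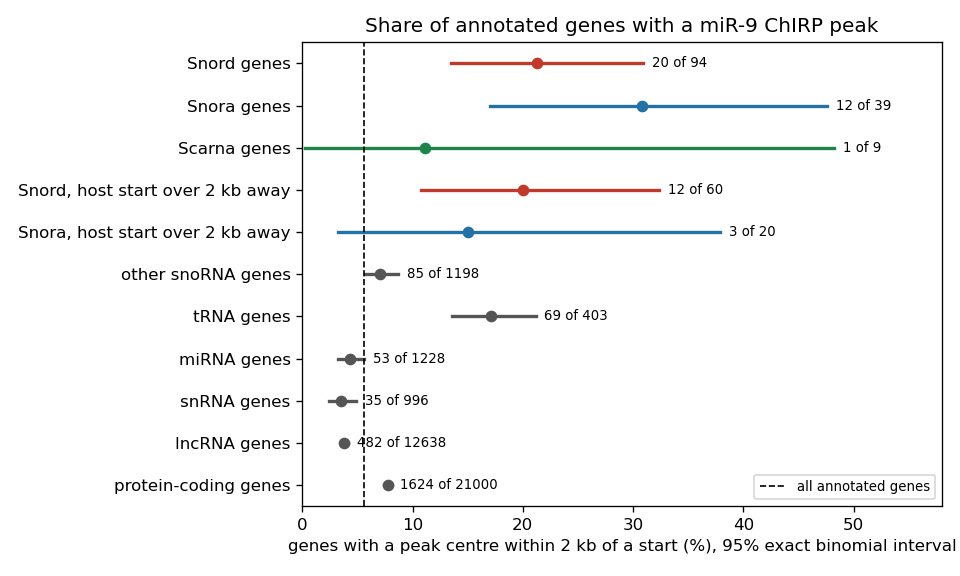
Share of annotated genes of each class with a miR-9 ChIRP peak centre within 2 kb of a start (x axis, percent). Points are shares, bars 95% exact binomial intervals of genes, the numbers give genes with a peak of genes annotated, and the dashed line marks the 5.58% of all annotated genes. Snord (21.3%) and Snora genes (30.8%) lie to the right of the line. Where the start of the host is over 2 kb away, the counts are 12 of 60 and 3 of 20. The interval of the 3 of 20 spans the line, and the 12 of 60 include Snord116 copies.

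Most of these genes share their neighbourhood with a host gene, so the distance to the host start was separated out. Of the 142 genes, 131 lay in introns and 6 on exons of a host, and 5 had no host. The hosts themselves had a peak centre within 2 kb of their own start in 23 of 89 cases (25.8%, 17.1 to 36.2%). This is close to the 23.2% of the small RNA genes. Of protein-coding genes with a curated mRNA, 1398 of 21000 had a peak centre within 2 kb of a curated start (6.66%), the rule used for the hosts. Ribosomal protein genes had one in 7 of 24 with a small RNA gene inside (29.2%, 12.6 to 51.1%) and in 10 of 67 without (14.9%, 7.40 to 25.7%). Where the host start was within 2 kb of the small RNA start, 17 of 51 genes had a peak (33.3%, 20.8 to 47.9%). Where it was farther, 15 of 86 had one (17.4%, 10.1 to 27.1%). Near a host start and away from one, a peak was found for 8 of 31 and 12 of 60 Snord genes (25.8 and 20%), and for 9 of 19 and 3 of 20 Snora genes (47.4 and 15%), with overlapping intervals within each class. Without the Snord116 copies, the Snord count away from a host start was 8 of 43 (18.6%, 8.39 to 33.4%). The interval of the 3 of 20 Snora genes (3.21 to 37.9%) holds the 5.58% of all annotated genes. Of the 32 genes with both a host and a peak within 2 kb, the peak centre was closer to the small RNA start in 25 and to the host start in 7. These genes were chosen for a peak near the small RNA start, so the count leans to that start by choice. For some, such as Snord71 with its host start 60729 bases away, no other outcome was possible. Among the 32 genes, the nearest peak covered the host start for 5, namely Snora24, Snora64, Snora73a, Snora73b and Snora78, all of them Snora genes. Beyond 2 kb, the peak nearest to Snord82 also covered the start of its host Ncl. Peaks other than the nearest were not checked for this.

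The 9 genes overlapped by a peak were 4 Snord, 4 Snora and 1 Scarna gene (6.34% of 142, interval 2.94 to 11.7%), beside 2.09% of all 5227 annotated genes of at most 300 bases. Genes for tRNA had 34 of 403 overlapped (8.44%, 5.91 to 11.6%), above the small nucleolar and Cajal body RNA genes, with overlapping intervals. The 9 genes lay under 8 peaks, 8 of the 9 were covered whole, and none of these peaks had high-copy sequence, meaning that over 50% of its 32-base words occur at 5 or more places of the genome. The peak over Snord47, which guides methylation of large-subunit ribosomal RNA, was 1372 bases wide (chr1:161037511-161038882), its centre lay 104 bases past the Snord47 start, and it extended past the last exon of Gas5, a long non-coding host. A further peak of 642 bases lay in Gas5. Its centre was 541 bases past the nearest annotated start of that gene, which is not the first base of the gene. Snora24 lies on the single exon of Snhg8 and was covered by a peak of 689 bases (chr3:123507759-123508447) centred 37 bases before its start. Snora65 in Rpl12, a host coding for a protein of the large ribosomal subunit, had a peak of 907 bases centred 38 bases before the small RNA start. The host starts 1589 bases from Snora65, and its start was not covered. Snora78 in Snhg9 was covered by a peak of 873 bases (chr17:24719606-24720478) that HOMER named Rps2, since the start of Rps2 lies 21 bases from its centre.

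A peak of 962 bases in Hspa8 (chr9:40803589-40804550), which codes for a constitutive heat shock protein of the cytosol, took in the U14 genes, whose RNA is needed to process the precursor of small-subunit ribosomal RNA. It covered all of Snord14d and 81 of the 87 bases of Snord14c, and Snord14e lay 679 bases past its centre. The centre was 2793 bases from the start of Hspa8. On chromosome 18, Scarna17 was covered by a peak of 843 bases and Snord58b in Rpl17 by one of 1209 bases. Each had a second peak farther along the gene strand, of 3032 bases centred 2592 bases past the Scarna17 start, and of 584 bases centred 1903 bases past the Snord58b start. Of the other Scarna genes, Scarna3a had 1 narrow peak of 129 bases at 20210 bases, and the remaining 7 were named by no peak. Their nearest peak centres were between 7294 bases (Scarna9) and 225347 bases (Scarna3b) away.

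**Figure D2:**
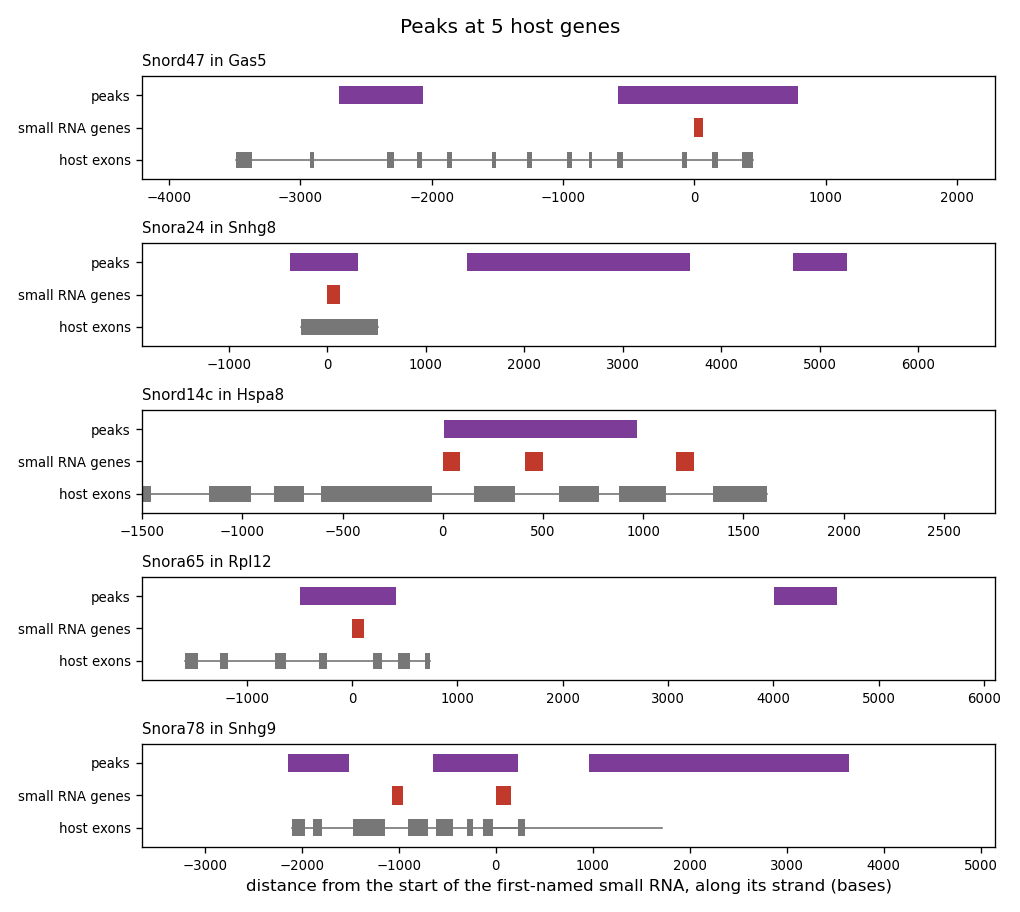
Peaks (purple), small RNA genes (red) and exons of their hosts (grey) at 5 host genes, drawn to scale against the distance in bases from the start of the small RNA named first in each title, along its strand. In each of Gas5, Snhg8, Hspa8, Rpl12 and Snhg9 a peak overlies a small RNA gene, and further peaks lie beyond the last exon of Snhg8 and Rpl12.

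Neighbouring small RNA genes often lay near the same peak. At 2 kb, 9 peaks lay near 2 or more small RNA genes, and 17 of the 33 genes with a peak shared one (51.5%). The close spacing of small RNA genes bears on this share, and its part was not tested. The shared hosts included Snhg7 (Snora17 and Snora43, a peak of 124 bases), Rps12 (Snora33 and Snord100, 769 bases) and Snhg3 (Snora73a and Snora73b, 693 bases). The Snora73 RNAs, also called U17, act in the processing of small-subunit ribosomal RNA. Rps2 and Snhg9, which lie side by side on opposite strands, had 2 peaks near both Snora64 and Snora78. Hspa8 and the Snord116 array also held shared peaks. Because genes that share a peak are not independent, the 33 genes rest on 24 different peaks, and the peak names follow only some of them: for 16 of the 33 genes the nearest peak carried the name of another gene. The peak 246 bases before Snord73b in Rps3a1, for example, was named Rnu73b, and that near Snord22 in Snhg1 was named for Snhg1 itself.

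Counted over the peaks, the 79 members were closer to the start of their gene than the other peaks. The naming fixes this in part, because HOMER names a peak from its nearest start. Most of these small RNA genes lie inside hosts with starts of their own, which take the name of peaks nearer to them. Within 2 kb of the start that HOMER used lay 23 of 79 (29.1%, 19.4 to 40.4%), while 1467 of 17843 other peaks did (8.22%) and 8.31% of all peaks. The share was 14 of 55 among Snord peaks (14.7 to 39.0%) and 8 of 21 among Snora peaks (18.1 to 61.6%), with overlapping intervals. The median distance was 4169 bases in members and 29577 bases in other peaks. Members had widths with quartiles of 163.5, 518 and 674.5 bases, and other peaks had 155, 407 and 574 bases. Of the members, 47 were wide, over 250 bases (59.5%, 47.9 to 70.4%), against 52.6% of other peaks. Within 2 kb of the start 18 of 23 members were wide (78.3%, 56.3 to 92.5%), and so were 61.9% of other peaks within 2 kb.

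Members close to a start differed in size and side. The narrow ones were Snora43 (124 bases), Snord71 in Ap1g1 (123 bases, 650 before the start) and Snora31 in Tpt1 (140 bases, 1952 past it), beside Snora19 and a Snord116 copy treated below. Wide ones included Snord12 in Zfas1 (1971 bases, 1243 past the start), Snord98 in Ccar1 (831 bases, 516 past), Snord104 (669 bases, 499 past), Snord61 in Rbmx (667 bases, 488 before), Snord45b in Rabggtb (433 bases, 643 past) and Snora2b in Kansl2 (513 bases, 1898 before). Among the 33 genes, the nearest peak centre lay past the small RNA start for 12 Snord genes and before it for 8, while for the Snora genes 2 had it past and 10 before. Of those 12 Snora genes, 9 lie within 2 kb of the host start, and its part in the count was not tested. Genes that share a peak were counted separately here, so these counts rest on fewer peaks than genes. The same peak lay past the start of Snora17 and before that of Snora43, and the Hspa8 peak was counted for 3 Snord genes. Peaks of the Snord116 array were also counted on both sides. The widest members were the peaks of Snord17 (3666 bases), Scarna17 (3032), Snora24 (2271), Snora7a (2161) and Snord12 (1971).

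**Figure D3:**
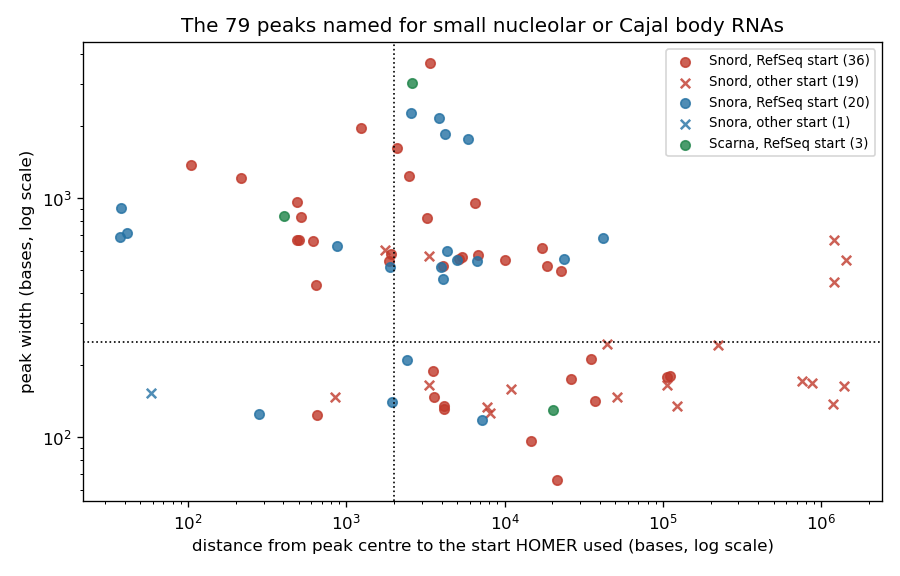
Width (y axis, bases, log scale) of each of the 79 peaks against the distance of its centre from the start HOMER used (x axis, bases, log scale), coloured by class. Circles are the 59 peaks whose start is that of RefSeq and crosses the 20 whose start is another place, and the dotted lines mark 2 kb and 250 bases. The 23 peaks left of 2 kb are mostly wide, and the 12 peaks beyond 100 kb are narrow or crosses.

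Many members lay beyond the last base of the host gene. Of the 57 members whose start was that of RefSeq and whose gene had a host, 29 had their centre inside the host and 28 past its last base, 20 of these within 5 kb. None lay before the host start, which the naming fixes in part, because HOMER gives a peak there the name of the host. The 28 peaks belonged to 17 hosts, their median distance past the end was 3564.5 bases, and 20 were wide. Past Snhg8 lay peaks of 2271 and 548 bases, past Rps12 one of 1851 bases (named Snora33), past Rpl32 one of 2161 bases (Snora7a), past Rpl3 one of 1616 bases (Snord83b) and past Rps3a1 one of 1241 bases (Snord73a). The peaks past Rpl32 and Snhg8 lay inside the neighbouring genes Cand2 and Prss12. Peaks named Snord12 lay 674 and 3029 bases past Zfas1, and those named Snora31 lay 1572 and 3570 bases past Tpt1.

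The host genes were therefore counted as a group, a count chosen after these positions were seen. A peak centre up to 5 kb past the last base was found for 27 of the 89 hosts (30.3%, 21.0 to 41.0%), against 1436 of 24652 curated coding and long non-coding genes without such a small RNA gene (5.83%, 5.54 to 6.12%), and 5.91% with hosts included. Up to 5 kb before the start, 7 of 89 hosts had a peak centre (7.87%, 3.22 to 15.5%), against 5.58% of the other genes. The share past the end was 8 of 24 in ribosomal protein hosts, 8 of 21 in long non-coding hosts and 11 of 44 in other coding hosts. Ribosomal protein genes without a small RNA gene inside had 16 of 67 (23.9%, 14.3 to 35.9%), an interval that overlaps that of the ribosomal protein hosts (33.3%, 15.6 to 55.3%). Levels of transcription were not measured in these data, and their part in the counts was not tested.

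**Figure D4:**
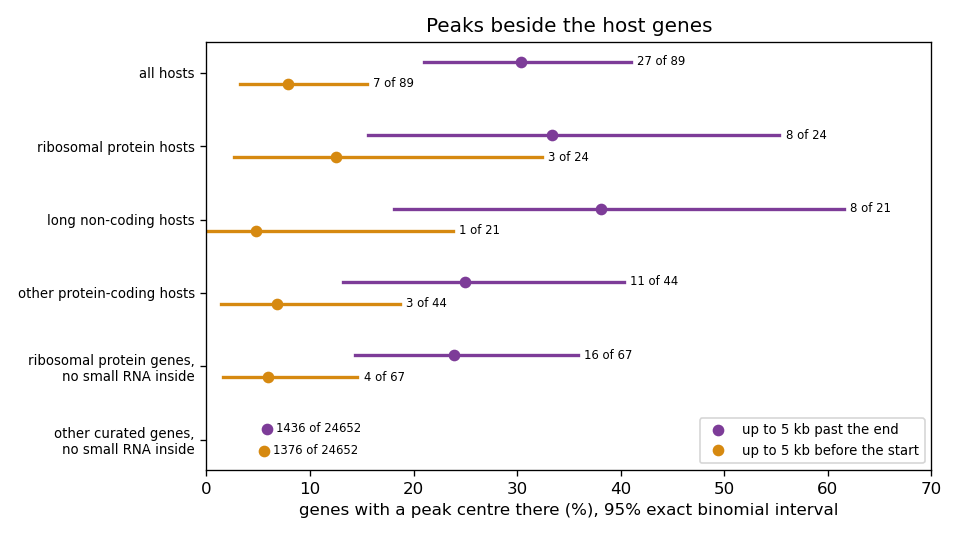
Share of genes (x axis, percent) with a peak centre up to 5 kb past the last base (purple) or up to 5 kb before the start (orange), for host genes of small RNAs and for genes without one. Bars are 95% exact binomial intervals of genes and the numbers give genes with a peak of genes counted. Past the end, all 3 kinds of host lie at 25% or more, and ribosomal protein genes without a small RNA gene lie at 23.9%.

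Some peaks took their name from a start other than that of RefSeq. For 59 of the 79 peaks the start that HOMER used was that of RefSeq, within 5 bases, and for 20 peaks of 5 genes it was elsewhere. The 9 peaks named Snord14d lay on chromosome 10, from 123048 to 1426579 bases past starts where at most 27 bases matched the 87-base gene, while RefSeq places Snord14d in Hspa8 on chromosome 9. These 9 were the farthest of all members, 6 of them had high-copy sequence, and 6 were annotated as LINE repeat. The Snora19 peak, 153 bases wide and 58 bases from its start in Cbwd1 on chromosome 19, sat at a copy that matched all 56 bases of the RefSeq gene, which lies elsewhere on that chromosome. A Snord58b peak on chromosome 14 (126 bases, 8086 before the start) was named from a copy with 54 of 55 bases. Without the peaks named Snord14d, Snord64 and for Snord116 copies, 21 of 59 members were within 2 kb (35.6%).

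The remaining copies lay in Snhg14, the long host transcript of the imprinted Snord116 array, whose RNAs are known from brain and from the Prader-Willi locus. Snhg14 held 18 peaks and 206 annotated snoRNA genes, of which 18 have a Snord name. All 14 peaks within 2 kb of a snoRNA start had high-copy sequence (61.6 to 100% of their words, at a median of 7 to 51.5 places), and 12 were narrow. Among all 79 members 18 were high copy (22.8%, 14.1 to 33.6%), beside 21.7% of all peaks. Of these, 11 were the 11 members inside Snhg14, and 7 of the 68 others. A read from such sequence fits many places, and which copy it came from cannot be told apart here. No peak overlapped a snoRNA copy of the array.

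The array peaks were grouped by sequence, joining any pair with an alignment score of at least 0.6 per base. Of the 14, 7 fell into a first group, 801 to 976 bases past a snoRNA start. They were not all alike, since the peaks at 801 and 976 bases scored 0.0610 per base with each other, and the wider peak at 873 bases, of 245 bases, joined those at 801 to 851 bases with those at 970 to 976 bases. A second group of 3 peaks had offsets of -963 to -819 bases, where a negative offset lies before the start, and 2 had offsets of -286 and -253 bases. The others lay 387 and 1249 bases past a start. In the first group, 3 peaks held ACCAAAGA, the complement of miR-9 bases 1 to 8. Another held 7 of these bases. The stretches around these words, on the plus strand of chromosome 7, are shown because they set miR-9 beside the captured repeat, with the complementary bases in capitals.
Snord116l2 peak (chr7:59707725-59707764): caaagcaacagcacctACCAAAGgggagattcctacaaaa
Snord116l2 peak (chr7:59740630-59740669): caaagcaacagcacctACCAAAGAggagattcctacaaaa
Snord116l2 peak (chr7:59750746-59750785): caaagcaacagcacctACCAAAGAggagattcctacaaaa
Snord116l1 peak (chr7:59796163-59796202): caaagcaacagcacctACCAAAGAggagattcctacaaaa
Snhg14 is transcribed from the other strand, so its RNA reads as miR-9 does there and not as its complement. A stretch alike over these 40 bases, with an alignment score of at least 30, and with the full 8-base word stood at 60 places of Snhg14, of which 3 were in a peak. With only 7 bases of the word it stood at 9 places, 1 of them in a peak. The copies lay 815 to 820 bases from a snoRNA start.

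**Figure D5:**
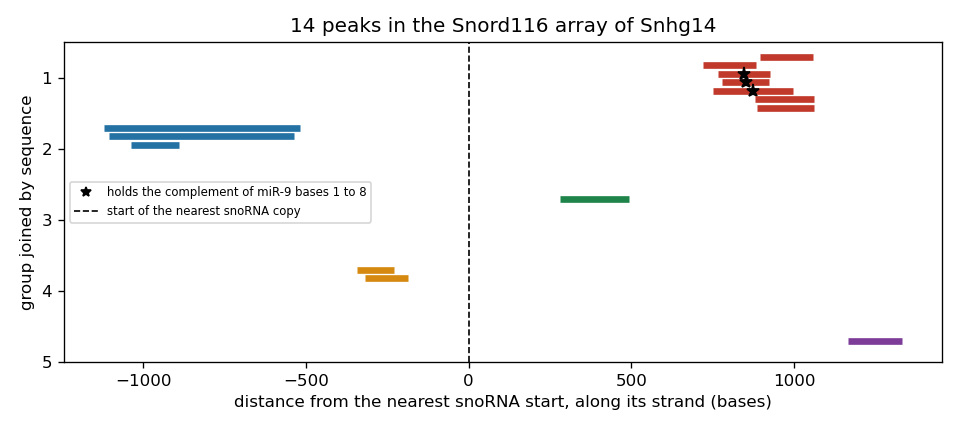
The 14 peaks of Snhg14 within 2 kb of a snoRNA start, as bars of their width against the distance in bases from the nearest snoRNA start, along its strand. Rows are groups of peaks joined by alike sequence, directly or through another peak, and stars mark the 3 peaks with the complement of miR-9 bases 1 to 8. The 7 peaks of the first group have centres 801 to 976 bases past a start.

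Members held words of 8 and of 10 bases of miR-9 about as often as other peaks. At 7 bases their share was higher, with an interval that starts barely above the share of other peaks. An 8-base word of miR-9, on either strand, was in 20 of 79 members (25.3%, 16.2 to 36.4%), against 26.4% of other peaks and 26.4% of all peaks. Split by width, it was in 7 of 32 narrow members (21.9%, 9.28 to 39.97%) against 10.6% of other narrow peaks. It was in 13 of 47 wide members (27.7%, 15.6 to 42.6%) against 40.7% of other wide peaks. Both intervals hold the share of the other peaks. Of the 7 narrow ones, 3 were the Snord116 copies just shown, and outside Snhg14 there were 4 of 23. The longest words are printed with 8 flanking bases where the peak allows, the word in capitals, on the strand that reads like miR-9.
Snora75 peak (chr1:86345906-86345932), miR-9 bases 2 to 12: ctatgtagCTTTGGTTATCctagaact
Snora43 peak (chr2:26638206-26638230), miR-9 bases 13 to 22: tcactgtTAGCTGTATGctccacca
Snord71 peak (chr8:109816611-109816636), miR-9 bases 14 to 23: aaagtgtgAGCTGTATGAtttataaa
Snord73a peak (chr3:86136552-86136577), miR-9 bases 4 to 13: gcagttacTTGGTTATCTgaagcttg
Snord14d peak (chr10:46466797-46466822), miR-9 bases 10 to 19: tcctcataATCTAGCTGTctctgtga
The word in the Snora75 peak takes in the whole seed and is the longest of any member. That peak is 1772 bases wide and lies in Ncl, the gene of nucleolin and host of Snora75, 5848 bases past the small RNA start. Words of 10 or more bases were in 5 of 79 members (6.33%) and in 6.04% of other peaks. Words of 7 bases were in 52 of 79 members (65.8%, 54.3 to 76.1%) and in 54.2% of other peaks. By width, 7-base words were in 16 of 32 narrow members (50%, 31.9 to 68.1%) against 30.97% of other narrow peaks, and in 36 of 47 wide members (76.6%, 61.97 to 87.7%) against 75.2% of other wide peaks. Within 2 kb of the start they were in 19 of 23 members (82.6%, 61.2 to 95.05%) and in 53.7% of other peaks. Among wide peaks within 2 kb, 7-base words were in 15 of 18 members (83.3%, 58.6 to 96.4%) and in 69.4% of other peaks. Words of 8 bases were in 5 of 23 members within 2 kb (21.7%, 7.46 to 43.7%) and in 25.4% of other peaks there. Among the wide ones, 8-base words were in 3 of 18 members (16.7%, 3.58 to 41.4%) and in 35.4% of other peaks. Both of these intervals hold the share of the other peaks too.

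A G-quadruplex motif was searched on either strand as 4 runs, each of 3 or more G, with 1 to 7 bases between them, and it was in 5 of 79 members (6.33%, 2.09 to 14.2%), and in 5.64% of other peaks and 5.65% of all. Close to a start, it was in 1 of 23 members and in 13.7% of other peaks within 2 kb. The median GC content was 44.7% in members and 42.2% in other peaks. HOMER gave a repeat class to 21 of 79 members (26.6%, 17.3 to 37.7%), against 48.8% of other peaks. These were 10 SINE, 6 LINE, 2 LTR, 2 simple repeats and 1 DNA transposon. Within 2 kb a repeat class was given to 0 of 23 members (0 to 14.8%) and to 216 of 1467 other peaks (14.7%). HOMER annotated 11 members as transcription termination sites (13.9%), against 2.01% of other peaks, all 11 within 2 kb of the start. A small RNA gene ends so close to its start that this class overlaps its own promoter, so gene length bears on the share.

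Genes that named several peaks numbered 17, and 23 genes named 1. Among them were Snord14d with 9, Snord116l1 with 5, Snord17, Snord98 and Snord116l2 with 4, and Snora24, Snora3 and Snord58b with 3. Snora31, Snora65, Snord11, Snord12, Snord64, Snord71, Snord104 and Scarna17 had 2 each. For Snord17 in Snx5 they spanned 3362 to 37009 bases past the start, for Snora3 in Rpl27a 7155 to 41943 bases, and for Snord11 in Nop58, a core protein of box C/D particles, 18464 and 21393 bases.

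Some well-known small nucleolar RNAs were looked up by name. U3, a box C/D RNA that processes the ribosomal RNA precursor and whose gene names lie outside the name rule, has 4 Rnu3b genes on chromosome 11, and 3 of them were overlapped by wide peaks that HOMER named Tex14. These were Rnu3b1 (612 bases, centre 47 bases past the start), Rnu3b3 (920 bases, 149 past) and Rnu3b4 (895 bases, 448 past), none with high-copy sequence. The nearest peak to Rnu3b2 lay 2137 bases past its start, and that to Rnu3a had an offset of -11356 bases. The Rnu3b pseudogenes on other chromosomes were not overlapped by a peak. Of all genes classed as snRNA in RefSeq, U3 included, a peak overlapped 10 of 996 (1.00%). U8 (Snord118) and U13 (Snord13), both among the 142 genes, had no peak closer than 11148 and 213267 bases. No gene named Snord113, Snord114 or Snord115 was in the annotation used, so those arrays were not counted.

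The genes for proteins of the pathway were listed by role. Among 21 genes for core proteins, assembly factors, Cajal body proteins and the cap hypermethylase Tgs1, 2 had a peak centre within 2 kb of a start (9.52%, 1.17 to 30.4%), which is near the 7.73% of protein-coding genes. These were Nhp2, a core protein of box H/ACA particles (566 bases, 91 past the start), and Wrap53, which brings guide RNAs to Cajal bodies (398 bases, 214 past). The 4 box C/D proteins Fbl, Nop56, Nop58 and Snu13 had none, and neither had Dkc1, Gar1 or Nop10. Of 18 long non-coding genes listed by name, most of them hosts, 7 had a peak within 2 kb (38.9%, 17.3 to 64.3%), beside 3.81% of all lncRNA genes. They were Gas5, Snhg1, Snhg3, Snhg7, Snhg8, Snhg9 and Snhg17. All of these but Snhg17 were among the hosts counted above, so the count is not a separate one. Snhg17 and some others of the list, such as Meg3, held no gene with a Snord, Snora or Scarna name in the annotation used. Rian and Meg3, of the imprinted cluster on chromosome 12, had none near, with the nearest peak centre at offsets of -533688 bases from Rian and -470739 bases from Meg3.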

How the data were processed

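ChIRP-seq of miR-9 was done in MLg cells (1 capture and 1 input library). Per the methods, the authors trimmed reads (Trimmomatic 0.36), mapped them to mm10 with Bowtie2, removed duplicates, called peaks with MACS over the input, merged them with bedtools and annotated them with HOMER. The deposited score is 0 in all 17922 peaks, and depth is unknown. Of the peaks, 8093 had annotation cells split at commas, which were rejoined, and 64 had no gene name.

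Members are the peaks named Snord, Snora or Scarna. The members and all lists were chosen with earlier results of these data known. Named genes are those of members within 2 kb, the 5 widest and 5 farthest members, genes with 2 or more peaks, hosts with 2 or more covered small RNA genes, Scarna genes with a peak, and the U3, U8, U13 and Snord113 to Snord116 groups. Results for some loci are not reported here. Others named here (hosts, and genes of peaks past host ends or with the longest miR-9 words) were chosen after their values were seen.

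Distances run from the peak centre to RefSeq starts (GRCm38.p6), and narrow peaks are those of up to 250 bases. Shares carry 95% exact binomial intervals (Python 3.11.15, numpy 2.4.6, pandas 2.3.3, scipy 1.17.1, numba 0.67.0, Biopython 1.88, matplotlib 3.10.9). With 1 library per group no test was made. The searches for distances, words and motifs were tested on simulated data. Alternatives changed the distance limit, word length, loop length, peak width, high-copy peaks and arrays.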

Additional observations from a re-analysis of the deposited data

How the results depend on the processing

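With no replicates, no p-value or replicate spread can be given, and neither depth nor peak strength is known. The share of the 142 small RNA genes with a peak, 23.2% within 2 kb, was 35.9% within 5 kb, 16.2% with wide peaks only and 6.34% where the peak had to overlap the gene. For Snord genes it was 21.3%, 34% within 5 kb and 4.26% by overlap, and for Snora genes 30.8% and, by overlap, 10.3%. Of all annotated genes, 5.58% had a peak centre within 2 kb and 10.8% within 5 kb. Of those of at most 300 bases, a peak overlapped 2.09%. The share of all annotated genes was not counted with wide peaks only, without high-copy peaks or at 1 kb. The share of the 79 peaks close to the start was 29.1%, and 53.2% at 5 kb. A miR-9 word was in 25.3% of them at 8 bases, 65.8% at 7 bases (54.2% of other peaks) and 6.33% at 10 bases. The other alternatives left each share within the counting interval. Among them, Snora genes had 20.5% at 1 kb and 46.2% at 5 kb, the G-quadruplex share was 12.7% with loops of up to 12 bases against 6.33% (9.20% of other peaks), and the share of genes without high-copy peaks was 20.4%. Of the alternatives, genes whose host start lay over 2 kb away (17.4%) and members without the Snord14d, Snord64 and Snord116 peaks (35.6% close to the start) were chosen after seeing the data. Naming peaks by the nearest RefSeq start gave 63 peaks in place of 79. No paired analysis was possible because there was 1 library per group.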
